A study of Homo sapiens with 10 samples.

Results

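Messenger RNA levels of 10 genes tied to growth arrest and nutrient sensing were followed in the human melanoma line MDA-MB-435, stimulated with hepatocyte growth factor (HGF) or transduced with integrin beta-4 (ITGB4). The genes were SESN1, SESN2, SESN3, BTG1, BTG2, TP53INP1, CCNG2, TXNIP, PIK3IP1 and IRS2, taken by name as transcripts known to be induced by stress, starvation or p53 and repressed by growth factors. They were chosen by their known roles and on their signals after 6 h of HGF against untreated cells. Every value of these genes which involves the 6 h arrays, calls included, is therefore a description from which nothing is read. No p-value is given for it. The untreated arrays also entered this choice, which can favour genes that read high on them. The other groups are compared with the same untreated arrays, so that lower values in those groups can be favoured too. The p-values of those comparisons do not allow for this choice. Of the 10, 9 had a named probe, 1 each, among the 16352 genes named on the array. The annotation used here names no probe for BTG2. A probe was kept for testing when it was detected on at least 1 array, which left 7 of these genes among 10596 genes (14018 probes) in all: SESN1, SESN2, SESN3, BTG1, TP53INP1, CCNG2 and TXNIP.

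Cells leave or delay division when nutrients or growth factors are short, and a set of inhibitory proteins carries that state. The sestrins bind the GATOR2 complex and hold back mTORC1, the kinase complex that couples amino acids to growth. BTG proteins recruit the CCR4-NOT deadenylase to messenger RNAs, TP53INP1 takes part in p53 signalling and autophagy, CCNG2 is a cyclin of arrested rather than dividing cells, TXNIP binds thioredoxin and limits glucose uptake, PIK3IP1 restrains PI3K, and IRS2 is an adaptor of the insulin receptor. Several of them are targets of FOXO factors, which AKT keeps out of the nucleus while growth factors signal. HGF acts through the MET receptor, upstream of both PI3K-AKT and ERK, and in melanoma cells it is known for promoting division and motility.

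Each of the 5 groups comprised 2 arrays: untreated cells, HGF stimulation of 1 h, of 6 h and of 24 h, and stable transduction with ITGB4, an integrin chain found in hemidesmosomes. All groups share the same line under standard growth conditions. The HGF and ITGB4 arrays are set against the same 2 untreated arrays in every comparison with untreated cells, and an empty-vector control was not analysed here. Samples of a group are described as biological duplicates, and p-values measure only the spread between these samples. Values are normalised signals in arbitrary units, in which the median detection limit was 89.6 (86.6 to 96.5 over the arrays), or differences on the log2 scale with the standard error (SE) of the limma fit. In bulk RNA of this kind, fewer cells with a transcript and less of it per cell cannot be told apart.

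Between 42.4% and 49.4% of 24105 probes were detected per array. MET gave signals of 78.5 to 112.1 and was detected on 6 of 10 arrays, HGF was detected on 0 of 10, and ITGB4 stood at 5022.8 and 6788.1 in the transduced cells against 59.6 to 63.9 elsewhere. Of 9 melanocyte markers with a probe, 8 were detected on all 10 arrays, among them MITF, TYR, PMEL and SOX10, so that the melanoma label holds by these markers. Of the markers of other cell types, EPCAM, CDH1 and KRT19 (3 of 8 epithelial), COL1A1, COL1A2, COL3A1, PDGFRB and POSTN (5 of 8 fibroblast) and CD3E, CD14, HLA-DRA and ITGAM (4 of 7 immune) were detected on 0 arrays, whereas 2 of each list were detected on all 10 (KRT18 and ESRP1, DCN and LUM, CD68 and LYZ). Undetected probes had lower detection scores on replicate 1 of the untreated and all 3 HGF groups (medians of 0.009 to 0.036) than on the other 6 arrays (0.263 to 0.446), so that the HGF differences are also given within each replicate number, which compares arrays of the same kind.

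Promoter windows of 300 bases, from 250 before to 50 after the transcription start, were taken from RefSeq (GRCh38.p14). They were found for 9 of the 10 genes, with 13 windows, and were searched on both strands for 6 short motifs. The windows of SESN2, BTG1 and TXNIP are shown because these genes had the largest differences at 1 h, the strongest signal and the largest difference at 24 h, respectively. Capitals mark the motifs found: in BTG1 a forkhead (FOXO) site followed by a cAMP response element (CRE) core, both read on the opposite strand, in TXNIP a FOXO site, and in SESN2 none.
SESN2, chr1:28259268-28259567, plus strand: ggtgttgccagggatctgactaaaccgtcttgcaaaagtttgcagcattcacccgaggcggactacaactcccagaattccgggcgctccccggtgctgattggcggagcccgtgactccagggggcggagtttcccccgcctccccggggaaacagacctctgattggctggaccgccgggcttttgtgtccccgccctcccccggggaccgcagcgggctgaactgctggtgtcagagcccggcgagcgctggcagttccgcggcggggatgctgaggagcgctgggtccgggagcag
BTG1, chr12:92145797-92146096, minus strand: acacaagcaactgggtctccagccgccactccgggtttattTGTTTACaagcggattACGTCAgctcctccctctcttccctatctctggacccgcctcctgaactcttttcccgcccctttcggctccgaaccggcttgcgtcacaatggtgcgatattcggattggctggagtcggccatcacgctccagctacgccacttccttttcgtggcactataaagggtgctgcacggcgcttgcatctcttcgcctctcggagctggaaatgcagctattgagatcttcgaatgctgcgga
TXNIP, chr1:145996530-145996829, minus strand: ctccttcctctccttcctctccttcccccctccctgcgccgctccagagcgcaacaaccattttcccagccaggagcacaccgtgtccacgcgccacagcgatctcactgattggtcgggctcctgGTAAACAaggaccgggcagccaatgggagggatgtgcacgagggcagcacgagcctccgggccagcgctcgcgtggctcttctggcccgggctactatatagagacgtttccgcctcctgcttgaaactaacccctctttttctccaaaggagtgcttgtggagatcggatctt
The FOXO site GTAAACA begins at -209 in BTG1 and at -124 in TXNIP relative to the start, and it was also found at +17 in 1 of the PIK3IP1 windows. It occurs in 3.42% of all 35116 windows of this length. The CRE core TGACGT begins at -193 in BTG1 and occurs in 7.98% of windows, and the E-box CACGTG was found in CCNG2 at -30 and occurs in 7.26%. The ATF4-C/EBP composite TGATGNAA (3.62% of windows), the AP-1 site TGANTCA (7.71%) and the CArG box (1.29%) were found in 0 of the 9 genes. Matches are of letters only, and TXNIP and PIK3IP1 each have a further window without the site.

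SESN2, the stress-inducible sestrin, had the widest range of the set, 3.03 on the log2 scale. Its signals were 299.7 and 374.0 in untreated cells, 907.9 and 450.8 after 1 h of HGF, 161.4 and 111.3 after 6 h, 365.8 and 499.4 after 24 h, and 349.2 and 266.2 with ITGB4. Both 1 h arrays lay above both untreated arrays, both 6 h arrays lay below every other array, and the 24 h and ITGB4 arrays overlapped the untreated ones. At 1 h the difference from untreated cells was 0.93 ± 0.30 (SE, n = 2 arrays per group; limma adjusted p = 0.224), with 1.60 between the replicates numbered 1 and 0.27 between those numbered 2. The higher group mean did not pass the test, and without HGF 1 h replicate 1 the difference was 0.43. With a block for replicate number in the limma fit the adjusted p was 0.0522. With a block for array background it was 0.0889. At 6 h SESN2 was 2.50-fold below untreated cells (-1.32 ± 0.30; -0.89 and -1.75 within replicate numbers) and 4.77-fold below the 1 h arrays (-2.25 ± 0.30). By 24 h it stood 0.35 ± 0.30 from untreated cells (adjusted p = 0.937) and 1.67 ± 0.30 above the 6 h level. Between 24 h and 1 h the difference was -0.58 ± 0.30 (adjusted p = 0.836).

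SESN3, the sestrin linked to FOXO, held a narrow level everywhere but at 6 h. Its signals were 148.3 and 165.1 in untreated cells, 163.5 and 146.2 at 1 h, 109.3 and 115.1 at 6 h, 158.0 and 161.5 at 24 h, and 155.2 and 171.5 with ITGB4. The 6 h arrays were the lowest of the 10 and did not overlap any other group, though they stayed detected. The 6 h difference was -0.48 ± 0.15 (1.39-fold lower), with -0.44 and -0.52 within replicate numbers, whereas the differences at 1 h and 24 h were -0.02 ± 0.15 (adjusted p = 0.983) and 0.03 ± 0.15 (adjusted p = 0.996).

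SESN1, the p53-inducible sestrin, stayed at the edge of detection. It was detected on 2 of 10 arrays, untreated replicate 2 (94.3) and ITGB4 replicate 2 (88.6), with 89.4 and 100.3 on the other array of each of these groups. All 6 HGF arrays were undetected, with signals of 71.1 to 85.0 that lay below both untreated arrays. Its differences of -0.17, -0.25 and -0.26 at 1 h, 6 h and 24 h (SE 0.16) are therefore differences between a level near the detection limit and levels under it, and those at 1 h and 24 h had adjusted p-values of 0.703 and 0.869. SESN1 passed the filter only through the groups in which it is high. That favours lower HGF values, so nothing is read from its place in the counts of groups without overlap below.

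BTG1, an antiproliferative member of the BTG/TOB family, was bright on every array. Its signals were 5982.7 and 6252.3 in untreated cells, 6083.5 and 4489.9 at 1 h, 3622.2 and 3304.5 at 6 h, 6580.3 and 6010.6 at 24 h, and 5430.5 and 5143.2 with ITGB4. The 6 h arrays were again the lowest, and the replicates of the 1 h group differed more than those of any other group. The 6 h difference was -0.82 ± 0.17, a 1.77-fold lower signal, and was similar in the replicates (-0.72 and -0.92). At 24 h BTG1 was 0.04 ± 0.17 from untreated cells (adjusted p = 0.995), with a 95% interval of -0.33 to 0.41. Both ITGB4 arrays lay below both untreated arrays, by -0.21 ± 0.17 (adjusted p = 1). The other BTG gene of the set, BTG2, has no value here.

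TP53INP1, a p53-inducible nuclear protein, gave signals of 362.9 and 255.9 in untreated cells, 226.0 and 233.5 at 1 h, 135.7 and 148.3 at 6 h, 369.0 and 240.5 at 24 h, and 257.6 and 270.1 with ITGB4. The 6 h arrays were the lowest, the 1 h arrays lay between them and the untreated arrays without overlap, and the untreated and 24 h groups spread about as widely as each other, with replicate 1 the higher array in both. The 6 h difference was -1.10 ± 0.21 (2.15-fold lower; -1.42 and -0.79 within replicate numbers). The 1 h difference of -0.41 ± 0.21 did not pass the test (adjusted p = 0.433), nor did that at 24 h (-0.03 ± 0.21; adjusted p = 0.997).

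CCNG2, the cyclin of quiescent cells, was dim, and detection set what can be said of it. Its signals were 104.6 and 120.9 in untreated cells, 71.7 and 97.2 at 1 h, 70.0 and 81.3 at 6 h, 93.5 and 116.2 at 24 h, and 114.3 and 113.6 with ITGB4. It was detected on both arrays of the untreated, 24 h and ITGB4 groups, on 1 of the 1 h arrays and on neither 6 h array. At 6 h only a bound holds, at least 1.23-fold lower than in untreated cells, where the bound sets the untreated mean against the detection limit of each 6 h array (measured difference -0.58 ± 0.19). The 1 h arrays lay below both untreated arrays, by -0.43 ± 0.19 (adjusted p = 0.343).

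**Figure D1:**
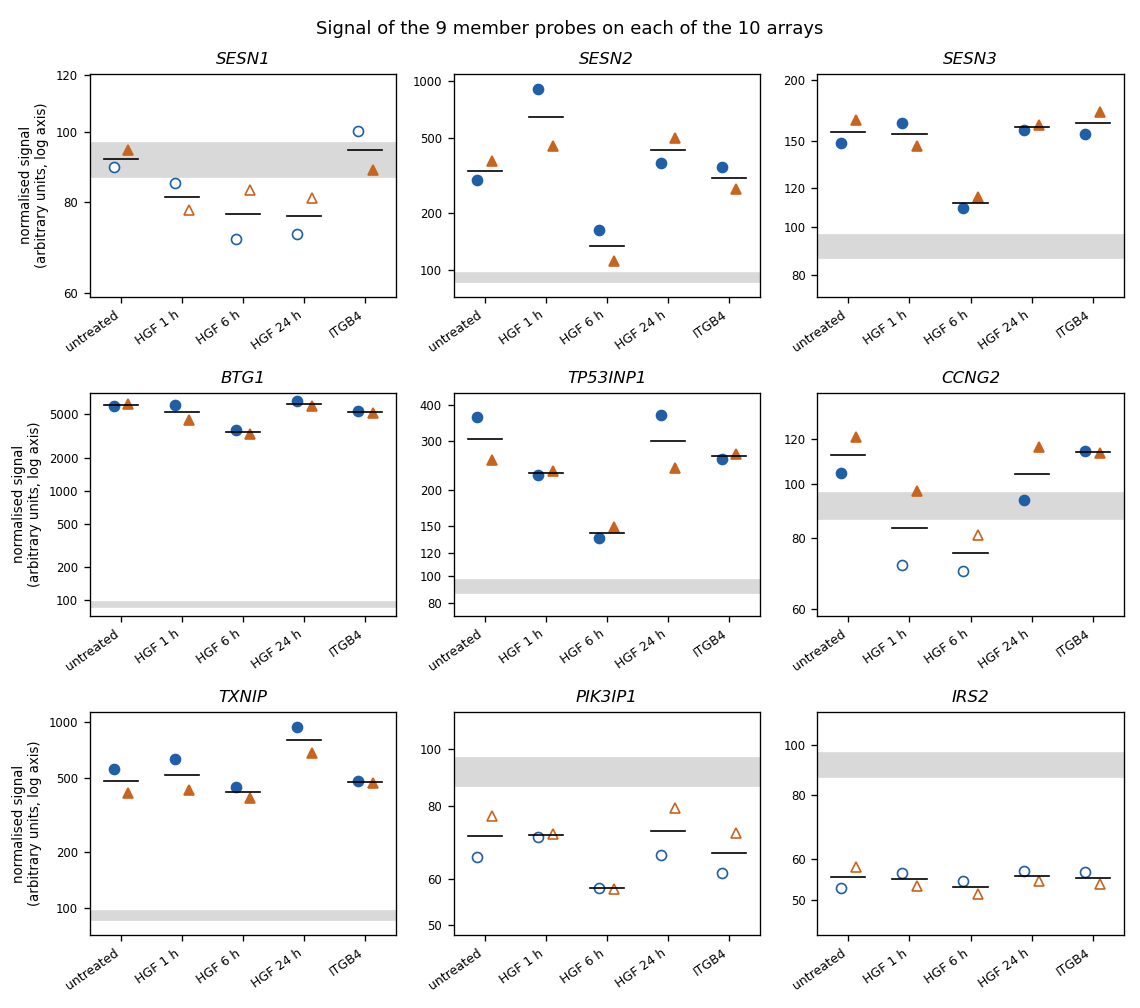
Normalised signal (log axis, arbitrary units; each panel has its own range) of the 9 genes with a named probe, by group. Circles are replicate 1 and triangles replicate 2, filled where the probe was detected, short lines are group means and the grey band spans the detection limits of the arrays (86.6 to 96.5); the HGF 6 h arrays are the lowest for SESN2, SESN3, BTG1 and TP53INP1, and the HGF 24 h arrays the highest for TXNIP.

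TXNIP, the thioredoxin-interacting alpha-arrestin, followed another course. Its signals were 556.4 and 418.5 in untreated cells, 633.9 and 429.6 at 1 h, 450.0 and 390.1 at 6 h, 942.3 and 678.7 at 24 h, and 484.6 and 469.7 with ITGB4. The 24 h arrays were the highest of the 10, and the 6 h arrays overlapped the untreated ones. At 24 h TXNIP stood 0.73 ± 0.22 above untreated cells, a 1.66-fold higher signal with a 95% interval of 0.25 to 1.21, and the replicates gave 0.76 and 0.70, but the difference did not pass the test over all probes (adjusted p = 0.857). Against 1 h it was 0.62 ± 0.22 (adjusted p = 0.674). At 6 h it was -0.20 ± 0.22 from untreated cells.

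PIK3IP1, the inhibitor of the PI3K catalytic subunit, and IRS2 were detected on 0 of 10 arrays. PIK3IP1 gave signals of 57.7 to 79.4 and IRS2 of 51.3 to 58.0, all under the lowest detection limit of 86.6, so that no difference between groups can be given for either gene.

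**Figure D2:**
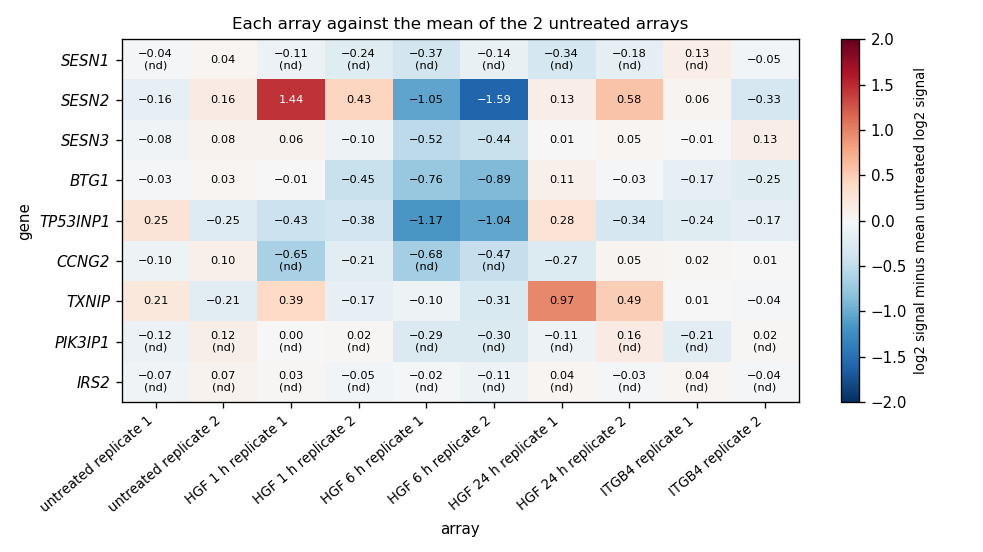
Log2 signal of each array minus the mean of the 2 untreated arrays, for the 9 genes with a named probe (rows) and the 10 arrays (columns), with (nd) where the probe was not detected. SESN2 runs from 1.44 on HGF 1 h replicate 1 to -1.59 on HGF 6 h replicate 2, and TXNIP reaches 0.97 and 0.49 on the HGF 24 h arrays.

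The counts that involve the 6 h arrays are descriptions, since the same arrays had shaped the choice of genes, and nothing is read from any of them. At 6 h against untreated cells, 3 of the 7 kept genes (SESN2, BTG1 and TP53INP1) were called lower (adjusted p under 0.05 by the Benjamini-Hochberg method, taken over every kept probe), beside 0.935% of all probes. Groups did not overlap for 6 of the 7, all lower, beside 23.9% of all probes. Fewer of the 7 were called without 1 untreated, HGF 6 h or ITGB4 array, and so were fewer of all probes. Without an untreated or 6 h array a compared group holds 1 array. Lower power and dependence on 1 array therefore cannot be told apart. Against 1 h, SESN2 was called lower at 6 h (2.43% of all probes) and groups did not overlap for 4 genes, all lower (25.9%). Between 6 h and 24 h, SESN2, BTG1, TP53INP1 and TXNIP were called higher at 24 h (4.24%), and groups did not overlap for 6 genes, all higher (22.5%). The differences from 6 h to 24 h were 1.07 for TP53INP1, 0.93 for TXNIP, 0.86 for BTG1 and 0.51 for SESN3.

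At 1 h of HGF, SESN2 lay above untreated cells and SESN1, TP53INP1 and CCNG2 lay below, and none of these differences passed the test. In limma 0 of the 7 genes were called, as were 0 of all 14018 probes (0%). With a block for replicate number, 0 of the 7 genes but 427 of all probes were called. With a block for array background, 0 of the 7 genes and 0 of all probes were called. At an unadjusted p under 0.05 there were 2 of the 7 (SESN2 and CCNG2) and 1897 of all 14018 probes, and an ordinary pooled-variance test also called 0. Groups did not overlap for 3 genes in the lower direction and 1 in the higher, beside 20.1% and 24.1% of all probes. Among the lower genes, SESN1 had passed the filter only through untreated and ITGB4 arrays. Lower values can also be favoured here because the untreated arrays entered the choice of genes.

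At 24 h, TXNIP lay above untreated cells and the other 6 kept genes differed from them by at most 0.35 (SESN2) on the log2 scale. Again 0 of the 7 genes and 0 of 14018 probes (0%) were called by limma, and 0 by the ordinary test. At an unadjusted p under 0.05 there were 1 of the 7 (TXNIP) and 800 of all 14018 probes. Groups did not overlap for SESN1 in the lower direction (14.7% of all probes) and TXNIP in the higher (14.9%). SESN1 had passed the filter only through untreated and ITGB4 arrays. In the comparison of 24 h with 1 h, limma called 0 of the 7 genes and 0 of all probes (0%), and the ordinary test 0 of the 7. At an unadjusted p under 0.05 there were 1 of the 7 (TXNIP) and 888 of all 14018 probes. Groups did not overlap for TP53INP1 and TXNIP, both higher at 24 h (11.2% of all probes).

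**Figure D3:**
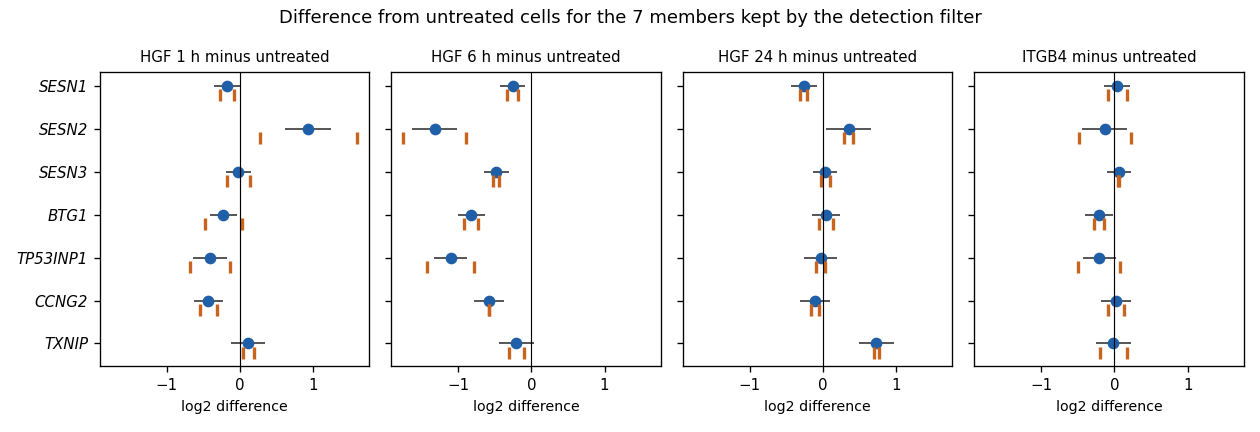
Log2 difference from untreated cells for the 7 kept genes in 4 comparisons that share the same 2 untreated arrays. Points are group differences with bars of 1 SE of the limma fit, and ticks below them are the differences within replicate numbers; SESN2 is at 0.93 after 1 h and at -1.32 after 6 h, and TXNIP at 0.73 after 24 h.

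With ITGB4 no difference of this set from untreated cells passed the test. The 7 differences ran from -0.21 (BTG1 and TP53INP1) to 0.06 (SESN3), each with an adjusted p of 1. The widest 95% interval was that of SESN2, -0.77 to 0.51, so that changes within it are not excluded. limma called 0 of the 7 and 1 of 14018 probes (0.00713%). At an unadjusted p under 0.05 there were 0 of the 7 and 117 of all 14018 probes, and 0 of the 7 by the ordinary test. Groups did not overlap for BTG1 (12.1% of all probes lower), a direction that the choice of genes can favour, since the untreated arrays entered it. Both ITGB4 arrays and untreated replicate 2 had the higher scores of undetected probes, and untreated replicate 1 the lower. This comparison therefore mixes the 2 kinds of array. With a block for array background, SESN1, CCNG2 and TXNIP changed sign, to -0.005, -0.13 and 0.19. The other kept genes did not, and 0 of the 7 were called. The deposited tables hold 2 versions of ITGB4 replicate 2 that differ. Without this array the 7 differences ran from -0.24 (TP53INP1) to 0.13 (SESN1), again with 0 called. In the series value table, which holds the other version and in which all 10 arrays were also processed in another way, they ran from -0.32 (TP53INP1) to 0.06 (SESN1), with 0 called.

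Genes that work with the members were grouped in 11 lists, which had been chosen with earlier results of these data known. Their counts, medians and p-values at 6 h are therefore a description too. They come from the same arrays and are no independent support for the members. Each gene was taken by its brightest kept probe and called over all probes. FBXO32 and CTH had 2 kept probes each and NBR1 and MITF 3 each, and values of their other probes are not given here. At 6 h, 113 genes of 10596 were called lower and 122 higher (2.22% in all), and the median of all genes was 0.00. At 1 h, 24 h and with ITGB4, limma without a block called 0 genes of each list, as it did 0 of all genes at 1 h and 24 h. The 21 list genes called at 6 h, MITF below included, kept their direction in all 18 other fits. Among these, fits that change only the filter, the test, a block or an array of another group cannot move the differences. Fewer of the 21 were called without 1 untreated, HGF 6 h, HGF 1 h or ITGB4 array, and so were fewer of all genes. Without an untreated or 6 h array a compared group holds 1 array. Lower power and dependence on 1 array therefore cannot be told apart. The ordinary pooled-variance test called 0. Some dim genes passed the filter only through the groups in which they are high.

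Around the sestrins, 32 genes were measured, mostly of GATOR, mTORC1, AMPK and their regulators. The list also holds others, among them KEAP1, NFE2L2, SRXN1, SQSTM1 and ULK1. Of the 32, 2 fell and 1 rose at 6 h, with a median of -0.12. In the series value table this median was 0.03, where that of all genes was 0.13. DEPTOR, an inhibitor within mTOR complexes, fell by 1.25 on the log2 scale (limma adjusted p = 0.0077), WDR59, a GATOR2 subunit, fell by 0.76 (adjusted p = 0.033), and SRXN1, the sulfiredoxin that reduces peroxiredoxins, rose by 1.02 (adjusted p = 0.035). Of 21 measured genes of ATF4 and amino acid stress, a pathway known to induce SESN2, 6 fell and 1 rose at 6 h, with a median of -0.70. CHAC1, which degrades glutathione, fell by 1.55 (adjusted p = 0.019), CTH, an enzyme of cysteine synthesis, fell by 1.33 (adjusted p = 0.030), NUPR1, a stress-induced nuclear protein, fell by 1.16 (adjusted p = 0.016), and ATF5, a transcription factor of the same family as ATF4, rose by 1.75 (adjusted p = 0.0032). ATF4 itself fell by 1.12 at 6 h (limma adjusted p = 0.0077), and CEBPG and DDIT3 were the other genes of this list that fell. At 1 h the median of this list was 0.18 and that of all genes 0.04.

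Around BTG1, 17 genes of the BTG/TOB family and the CCR4-NOT deadenylase were measured, and 0 were called in any of the comparisons with untreated cells. Their median at 6 h was -0.02, and 0.08 in the series value table, where that of all genes was 0.13. Of 20 measured genes of FOXO factors and their targets, 5 fell and 0 rose at 6 h, with a median of -0.35. FBXO32, a ubiquitin ligase subunit of atrophying muscle, fell by 1.19 (adjusted p = 0.026), GABARAPL1, an autophagosome protein, fell by 1.10 (adjusted p = 0.016), MXD4, a MAX partner that opposes MYC, fell by 1.07 (adjusted p = 0.019), and RBL2, the pocket protein p130 of quiescent cells, fell by 0.82 (adjusted p = 0.038).

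Around TP53INP1, 0 of 20 measured p53 genes fell and 1 rose at 6 h, with a median of 0.02. Under median scaling this median was -0.03, where that of all genes was -0.10. AEN, an apoptosis-enhancing nuclease, was the gene that rose (limma adjusted p = 0.044). It was detected on both 6 h arrays and not well above background on either untreated array, so that only a bound holds, at least 1.43-fold higher. Of 22 measured autophagy genes, 2 fell, GABARAPL1 and NBR1, an autophagy receptor (-0.94; adjusted p = 0.027), with a median of -0.17. Around CCNG2, 24 cyclins, CDK inhibitors and pocket proteins were measured, of which RBL2 fell and CCND1, cyclin D1, rose from a mean log2 signal of 7.74 to 9.03 (limma adjusted p = 0.039). Their median was -0.03, and 0.11 in the series value table, where that of all genes was 0.13. Of 20 proliferation genes, 0 were called, with a median of 0.08, and -0.02 under median scaling, where that of all genes was -0.10.

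Around TXNIP, 0 of 14 measured genes of thioredoxin, alpha-arrestins and MondoA/MLX were called at 6 h, with a median of 0.23. At 24 h their median was -0.08. Around PIK3IP1 and IRS2, PIK3CD, a PI3K catalytic subunit, fell by 0.95 at 6 h (adjusted p = 0.022) among 22 measured genes of insulin receptor and PI3K-AKT signalling, with a median of -0.07. In the series value table this median was 0.04, where that of all genes was 0.13. Of 20 genes of the early growth factor response, DUSP5, an ERK phosphatase, rose by 0.69 at 6 h (adjusted p = 0.045), with a median of 0.22, and at 1 h 0 were called, with a median of 0.16.

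**Figure D4:**
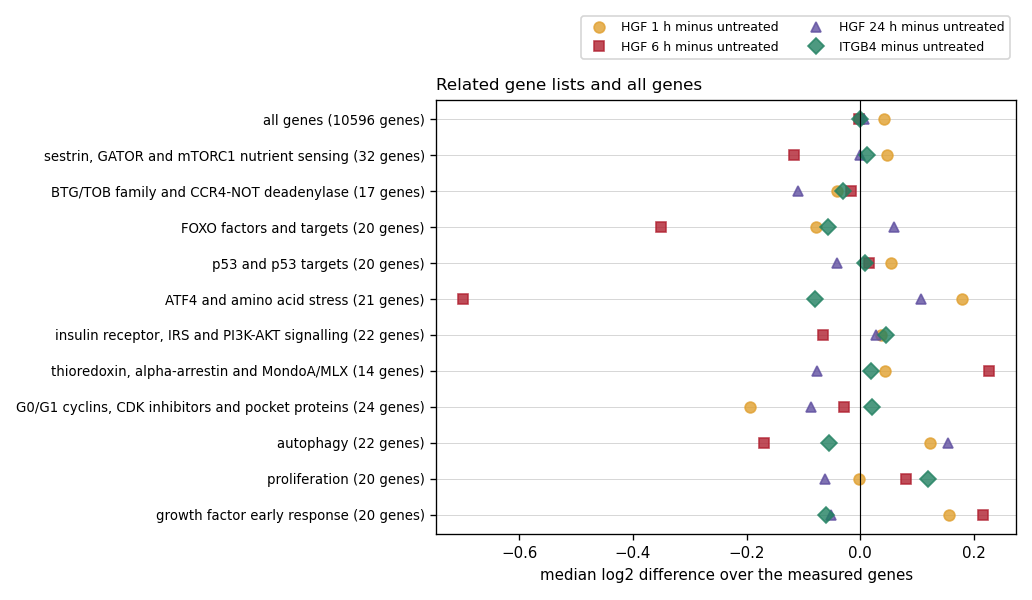
Median log2 difference from untreated cells over the measured genes of each list and over all genes, in 4 comparisons that share the untreated arrays (squares HGF 6 h, circles HGF 1 h, triangles HGF 24 h, diamonds ITGB4). The ATF4 list (-0.70) and the FOXO list (-0.35) lie lowest at 6 h, with all genes at 0.00, and no list lies below -0.20 in the other comparisons.

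Of the 9 measured melanocyte markers, 1 was called at 6 h: MITF, the lineage transcription factor, fell by 1.06 on the log2 scale (limma adjusted p = 0.036). The median of the 9 at 6 h was -0.49, with all 9 below 0, beside 5340 of all 10596 genes. Of the kept markers of other cell types 0 were called at 6 h, with medians of 0.22 over 5 epithelial, -0.37 over 3 fibroblast and 0.27 over 3 immune markers. At 1 h and 24 h the melanocyte medians were -0.09 and -0.30, and 0 markers of any of these lists were called. Their part in the differences of the 10 genes was not tested.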

How the data were processed

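Illumina Human-8 V1 BeadChips were used for the RNA of 10 MDA-MB-435 samples, 2 in each of 5 groups, and groups were taken from the sample labels. The authors deposited 1 scanner table per array, written by BeadStudio 1.5.1.3 per the submitters' processing notes, which gives for each probe an intensity on a linear scale, neither background subtracted nor normalised, a detection score from 0 to 1 and a number of beads (array medians of 26 to 32). The deposited value table of the series, used as an alternative, gives intensities after background subtraction and rank-invariant normalisation by the authors. Its columns were a straight line of the scanner values for 9 of 10 samples. The column of ITGB4 replicate 2 was not (largest residual 7751, Spearman correlation 0.968 across probes), and the files do not show which version belongs to that sample.

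Of 24136 probes, 22 controls and 9 lacking an intensity were set aside, and 24105 were quantile normalised and log2 transformed without background correction, offset or floor. Genes were named from the platform annotation (18758 probes with 1 symbol, 5347 with none), with 18688 symbols updated through the Entrez number. The 14018 probes (58.2%) with a detection score of 0.99 or more on at least 1 array, the filter of the study, were tested in 1 limma 3.58.1 fit (R 4.3.3) of 5 group means over all 10 arrays, with two-sided moderated tests and Benjamini-Hochberg adjustment over the kept probes. Precision is limited by the number of arrays, which left 5 residual degrees of freedom and 8.16 from the prior. The lower bound of a fold change for a probe undetected on all arrays of a group sets the other group's mean against the higher of its own signal and the lowest detected signal on each of those arrays.

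The 10 genes, the lists and the tests were chosen with earlier results of these data known. Named from each list were its called genes, at most the 4 with the largest difference, and besides these ATF4, CEBPG and DDIT3. From the genes of most alike pattern, the 3 of highest correlation were named for SESN2, BTG1, TP53INP1, TXNIP and CCNG2 (IRS2, also in the rule, was not kept). Alternatives were the series value table (floor 20), median scaling, normexp correction with an offset of 50, detection on 2 arrays, no filter, an ordinary pooled-variance test, blocks for replicate number and for array background, and leaving out each array. The files name no genome build, so that the promoter windows of RefSeq (GRCh38.p14) were matched by gene symbol alone. Probe positions and protein sequences were not used here.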

Additional observations from a re-analysis of the deposited data

How the results depend on the processing

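For the 7 kept genes, 0 were called at 1 h, at 24 h, with ITGB4 and between 24 h and 1 h under every alternative run. At 6 h, where the genes were chosen on these same arrays so that the counts are a description alone, 3 were called, and 0 with the series value table, 0 with the ordinary pooled-variance test, 5 with the replicate block and 5 with the array background block, both of which added SESN3 and CCNG2. Leaving out single arrays gave 0 to 3 called. Median scaling lost BTG1 and the absence of a filter lost SESN2. Over all probes, 267 were called at 6 h, and 531 with the series value table, 0 with the ordinary test, 1089 with the replicate block, 1066 with the array background block and 0 to 490 without single arrays. At 1 h, 2 were called with the series value table and 427 with the replicate block in place of 0, at 24 h 2 with the series value table in place of 0, and with ITGB4 1 to 2 without single arrays. Of the probes called at 6 h, 49.1% were lower, but 82.9% with median scaling and 31.1% with the series value table, in which the median of all probes was shifted by 0.16. The causes were not tested.

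The replicate numbers do not pair the samples by any label. The difference of replicate 1 and replicate 2 correlated between groups from -0.06 (HGF 1 h with ITGB4) to 0.66 (untreated with HGF 24 h), and was over 0.1 in 8 of the 10 pairs of groups, from 0.20 to 0.66 between untreated cells and the other groups. Since not every pair was over 0.1 and no label ties the numbers together, the samples were treated as sharing only a number. The 427 probes called at 1 h and 1089 at 6 h under the replicate block are an alternative to the 0 and 267 of the fit without it. The array background block, which differs from the replicate block only in how ITGB4 replicate 1 is coded, called 0 at 1 h and 1066 at 6 h. The 427 at 1 h therefore hang on the coding of that array.

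Of 686 values of single genes under alternatives, 37 changed sign, none of them called in either setting, and the largest of these was SESN2 between 24 h and 1 h (-0.58). The direction at 6 h was kept in all 20 alternatives by 6 of the 7 genes and in 19 by TXNIP. The higher SESN2 at 1 h (0.27 to 1.60) and TXNIP at 24 h (0.49 to 0.97) kept their sign in 20 of 20. Alternatives that change only the filter, the test, a block or an array of another group cannot move these HGF differences. Only the remaining alternatives bear on the sign. Of the 21 list genes called at 6 h, 17 were called with median scaling, 17 with the series value table and 15 with no filter. Depth in the sense of signal over background limits SESN1 and CCNG2, which lie at the detection limit, and PIK3IP1 and IRS2, which lie under it.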

Other observations

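The patterns of the members over the 10 arrays, all normalised together, were set against each other and against every named probe, as a description with no test. Among the 7 kept genes, Pearson's r over 10 arrays was highest for BTG1 with SESN3 (0.88) and BTG1 with TP53INP1 (0.85), was 0.76 for SESN2 with SESN3, and was lowest for TXNIP with SESN1 (-0.35).

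Of all other genes, those with the pattern most like SESN2 were APBB1, an adaptor of the amyloid precursor protein (r = 0.98 over 10 arrays), FLT3LG, a cytokine of blood progenitors (0.97), and PINK1, the mitochondrial quality control kinase (0.97). PINK1 ran from 697.2 to 1416.7 in signal. For BTG1 they were TNS3 (0.97), RBMS3 (0.96) and JARID2 (0.95), a partner of the Polycomb complex. For TP53INP1 they were TAF4B, MXI1, a MAX partner that opposes MYC, and DHX40, each at 0.97. For CCNG2 they were DHTKD1 (0.95), ANKRD28 and SSH2 (0.93 each). For TXNIP they were MTHFD1L, a mitochondrial folate enzyme (0.95), RCAN1, the inhibitor of calcineurin (0.94), and MARS1, the methionyl-tRNA synthetase (0.92). These genes were picked as the highest of all correlations computed, and the values are given as a description.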
